A study of Mus musculus with 6 samples.

Results

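The genes described here are 31 genes known to be expressed by retinal bipolar cells, measured by bulk RNA sequencing of mouse retinas at postnatal day (PN) 18. They were chosen by name, from a list of bipolar genes drawn up with earlier results of these data known. The only condition on their counts was a minimum of 10, summed over the 6 libraries. All 31 listed genes met it, as did 20021 of the 32285 genes in the table. Retinas came from 3 OIR-CIH and 3 OIR-Norm eyes of wild-type C57BL/6J mice, and n and the SD below are over libraries. In both groups the pups had been kept with their mothers at 75% O2 from PN8 to PN13, the oxygen-induced retinopathy (OIR) procedure, in which the central capillaries are lost and the retina is ischemic after the return to room air. The OIR-CIH pups then differed by chronic intermittent hypoxia (CIH), applied for 10 h a day as 266 cycles of 135 s in which the cage O2 fell from 20.95% to 5% and returned, while the OIR-Norm pups received the gas flow with no change in O2. No retinas without OIR were analysed here, so the values compare CIH with no CIH in ischemic retinas only. The question put to the bipolar genes was whether their RNA differed between these groups.

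Bipolar cells are the interneurons that carry the signal of rods and cones to amacrine and ganglion cells. ON bipolar cells, which include all rod bipolar cells, sense the glutamate released by photoreceptors through the metabotropic receptor mGluR6. In the dark this receptor, acting through the G protein Go, keeps the cation channel TRPM1 closed, and light lets the channel open, a response that makes up most of the b-wave of the electroretinogram. OFF bipolar cells instead carry ionotropic glutamate receptors. Whole retinas were used, so that fewer bipolar cells and less RNA in each bipolar cell cannot be told apart.

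The RNA of the bipolar genes differed little between the groups. None of the 31 genes (0) passed the call used throughout, an adjusted p under 0.05 with an absolute log2 fold change over 0.5 in edgeR's quasi-likelihood test, against 0.315% of all genes tested (63 genes, of which 21 were higher and 42 lower in OIR-CIH). DESeq2 also called 0 of the 31. Of the 31 genes, 14 were higher and 17 lower in OIR-CIH in the fit, with a median log2 fold change of -0.01, the same to 2 decimals as the median of all genes tested. The log2 fold changes ran from -0.27 for Trpm1 to 0.42 for Gng13. For 28 of the 31 genes the 95% interval of the log2 fold change lay within 0.5 of 0, as it did for 87.3% of the 12059 genes with a mean of at least 5 CPM (read counts relative to library size, scaled between libraries by the trimmed mean of M-values), and for 54.4% of all genes tested. The exceptions were Gng13, Fezf2 and Irx6, whose upper bounds passed 0.5. An unadjusted p under 0.05 was found for 8 of the 31 genes. That was a larger share than the 13.4% of all genes and the 15.8% of those with at least 5 CPM, and no test of that share was made. Of those 8 genes, 5 were higher in OIR-CIH (Gng13, Fezf2, Bhlhe22, Scgn and Irx6, against 6.3% of all genes in that direction). The other 3 were lower (Trpm1, Zfhx4 and Lrit3, against 7.09%).

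**Figure D1:**
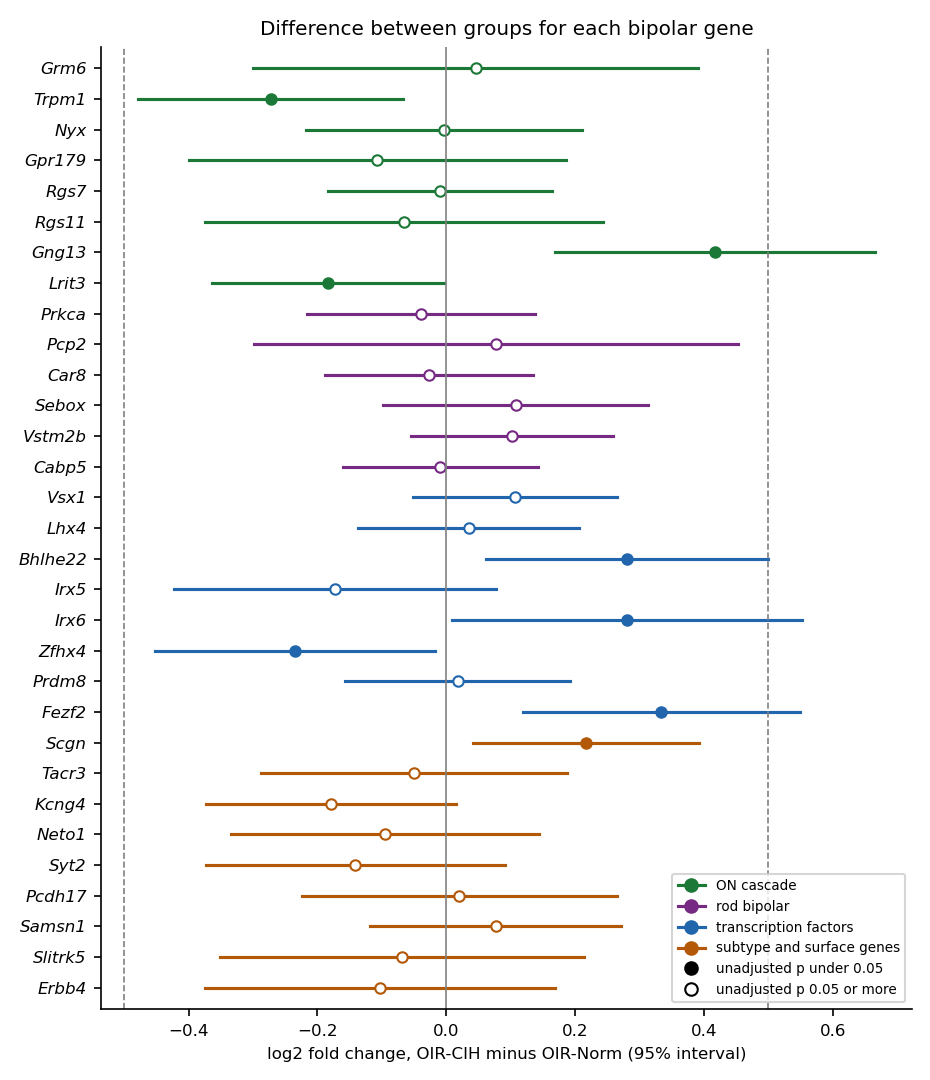
The log2 fold change (OIR-CIH minus OIR-Norm) of each bipolar gene with its 95% interval, colored by role; dashed lines mark a log2 fold change of 0.5 in either direction. Most of the intervals cross 0, and those of Gng13, Fezf2 and Irx6 pass the right dashed line.

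The libraries held between 26289905 and 38010151 counts, and the bipolar genes between 185 and 11396 counts in a library. Their median coefficient of variation between libraries was 7.74% in OIR-CIH and 6.82% in OIR-Norm. The library OIR-Norm 2 stood apart from the other 5. Its 4 lens crystallin genes summed to 459 CPM, against 10.7 to 76.1 CPM elsewhere, and its sum over 6 rod genes was the lowest (18480 CPM). The endothelial genes Cdh5 and Pecam1 were at 19.96 and 24.4 CPM in it, above every other library. The more abundant endothelial gene Kdr did not stand out, at 174.8 CPM in OIR-Norm 2 against 178.9 CPM in OIR-CIH 3. Where OIR-Norm 2 moved a bipolar value most, that value is given below with and without this library.

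The promoter sequences of 3 genes of the mGluR6 cascade are shown, because these genes belong to the same synaptic complex and yet differed in how they varied between the libraries. Gng13 had the lowest p of the 31 genes and was higher in OIR-CIH, Trpm1 had the largest fold change in the other direction, and Grm6, chosen after its values were seen, stood out in OIR-Norm 2. Each is given 5′ to 3′ for the 250 bases before the start of transcription, from RefSeq on GRCm38.p6, and all 3 genes lie on the plus strand. The first of 2 starts is shown for Gng13, at chr17:25716922-25717171, and for Trpm1, at chr7:64153585-64153834, while Grm6, with 1 start, is at chr11:50850435-50850684. Capitals mark TAATCC, the core bound by the photoreceptor and bipolar factors CRX and OTX2, which was found in 1 of the 3, on the reverse strand of Trpm1 with its first printed base 34 bases before the start.
Gng13: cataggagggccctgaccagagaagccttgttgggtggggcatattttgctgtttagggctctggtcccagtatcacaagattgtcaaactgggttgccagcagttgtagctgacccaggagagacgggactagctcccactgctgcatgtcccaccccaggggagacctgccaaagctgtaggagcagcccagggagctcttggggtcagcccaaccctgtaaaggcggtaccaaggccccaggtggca
Trpm1: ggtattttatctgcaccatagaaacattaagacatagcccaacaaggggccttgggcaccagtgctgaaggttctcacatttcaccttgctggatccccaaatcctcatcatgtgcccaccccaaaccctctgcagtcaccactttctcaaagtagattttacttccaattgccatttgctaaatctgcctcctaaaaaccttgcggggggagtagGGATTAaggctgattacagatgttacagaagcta
Grm6: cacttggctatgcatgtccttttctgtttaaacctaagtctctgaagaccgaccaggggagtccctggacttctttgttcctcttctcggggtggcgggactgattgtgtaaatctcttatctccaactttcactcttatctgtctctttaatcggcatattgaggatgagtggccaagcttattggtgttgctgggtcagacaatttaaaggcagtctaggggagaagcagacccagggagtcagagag
RefSeq windows of 300 bases, from 250 before to 50 after a start, were at hand for 24 of the 31 genes, in 30 windows (none for Rgs11, Car8, Bhlhe22, Irx5, Irx6, Zfhx4 and Neto1). Searched on both strands, TAATCC was in 3 of them (10.0%, in Cabp5, Kcng4 and Trpm1), against 7.06% of 32851 windows of that length. TAATTA, a core of homeodomain factors, was in 2 (6.67%, in Pcp2 and Samsn1), against 5.29% of all windows. CATATG, an E-box of basic helix-loop-helix factors, was in 0, against 3.91%. These matches are a description of the letters only.

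The ON cascade is represented by 8 genes, of which 2 were higher and 6 lower in OIR-CIH in the fit, with a median log2 fold change of -0.04, and 7 of the 8 intervals stayed within 0.5 of 0. Grm6 (ENSMUSG00000000617) encodes mGluR6 itself. It was at 168.9, 166.1 and 157.7 CPM in OIR-CIH 1, 2 and 3 and at 129.1, 216.7 and 131.6 CPM in OIR-Norm 1, 2 and 3. Its 3 OIR-CIH values were nearly alike and fell between OIR-Norm 2 and the other two OIR-Norm libraries, so that the groups overlapped. The means were 164 ± 5.84 and 159 ± 49.9 CPM (SD, n = 3 each), and the log2 fold change was 0.05 (SE 0.159, 95% interval -0.30 to 0.39, edgeR adjusted p = 0.927).

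Trpm1 (ENSMUSG00000030523), the channel at the end of the cascade, was at 254, 270.3 and 249.9 CPM in OIR-CIH and at 286, 360.1 and 288 CPM in OIR-Norm. All OIR-CIH libraries lay below all OIR-Norm libraries, and OIR-Norm 2 was again the highest. The log2 fold change was -0.27 (SE 0.0945, 95% interval -0.48 to -0.07), with an edgeR adjusted p of 0.282, which did not pass the threshold. An exact two-sided permutation test of the means gave p = 0.1, the smallest that 3 against 3 libraries allow. Without OIR-Norm 2 the log2 fold change was -0.16 (edgeR adjusted p = 0.585). Trpm1 is also expressed by pigment cells, so 5 pigment epithelium markers are given beside it. Their RNA summed to between 275 and 415 CPM in OIR-CIH and between 173 and 271 CPM in OIR-Norm. Of those 5 markers 4 were higher in OIR-CIH at an unadjusted p under 0.05 and 0 were called. The part of pigment cell RNA in the Trpm1 values was not tested.

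Gng13 (ENSMUSG00000025739), the G protein gamma subunit of the cascade, was at 13.8, 13.5 and 14.8 CPM in OIR-CIH and at 9.61, 9.93 and 12 CPM in OIR-Norm. The groups did not overlap, and OIR-Norm 2 was not apart from the other OIR-Norm libraries for this gene. With means of 14.0 ± 0.680 and 10.5 ± 1.30 CPM (SD, n = 3 each), the fold was 1.33 and the log2 fold change 0.42 (SE 0.114, 95% interval 0.17 to 0.67). Its edgeR adjusted p of 0.192 was the lowest of the 31 genes, and with 1 library left out it ranged from 0.0825 (without OIR-Norm 3, where the log2 fold change was 0.52) to 0.457 (without OIR-CIH 1). The exons of Gng13 share 399 of their 773 bases with Chtf18 on the opposite strand. Whether the counting used strand is not stated, so how reads there were counted is not known. Chtf18 itself was at 10.3, 11.2 and 6.59 CPM in OIR-CIH and at 6.49, 12.8 and 7.16 CPM in OIR-Norm (log2 fold change 0.08). The part of the overlap in the Gng13 values was not tested.

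Set against other genes of the same cascade in the same library, Gng13 kept its separation for some partners only. For every 100 reads of Trpm1 there were 5.44, 4.99 and 5.92 reads of Gng13 in OIR-CIH and 3.36, 2.76 and 4.16 in OIR-Norm. For every 100 reads of Rgs7 there were 37.9, 34.1 and 36.9 in OIR-CIH and 25.4, 24.1 and 31.6 in OIR-Norm. For every 100 reads of Rgs11 there were 14.7, 13.1 and 20.3 in OIR-CIH and 12.1, 8.64 and 13.65 in OIR-Norm. The first 2 ratios separated the groups and the last did not, since OIR-CIH 2 fell under OIR-Norm 3. The ratio to Trpm1 had to separate them, because Gng13 alone was higher and Trpm1 alone lower in every OIR-CIH library. It therefore adds nothing to those 2 orderings. Grm6 reached 66.6, 61.5 and 63.1 reads per 100 of Trpm1 in OIR-CIH and 45.1, 60.2 and 45.6 in OIR-Norm, where OIR-Norm 2 came close to the OIR-CIH libraries. These ratios do not depend on how libraries were scaled, and they were chosen after the values were seen, so no test is given.

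The remaining 5 cascade genes showed smaller differences than Trpm1 and Gng13. Gpr179, an orphan receptor that anchors the regulators of the cascade at the synapse, was at 141, 168 and 148 CPM in OIR-CIH and at 136, 208 and 149 CPM in OIR-Norm. Rgs11, which speeds the shut-off of Go, was at 94.0, 103 and 72.9 CPM in OIR-CIH and at 79.2, 115 and 87.9 CPM in OIR-Norm. In both of these genes the groups overlapped and OIR-Norm 2 was the highest of the 6 libraries. Rgs7, which shares the role of Rgs11, was at 36.5, 39.6 and 40.1 CPM in OIR-CIH and at 37.8, 41.3 and 38.0 CPM in OIR-Norm, with a log2 fold change of -0.01 (95% interval -0.18 to 0.16). Nyx, which encodes nyctalopin, a leucine-rich repeat protein that holds TRPM1 at the dendrite tip, was at 25.4, 25.9 and 31.1 CPM in OIR-CIH and at 29.3, 26.0 and 27.5 CPM in OIR-Norm. For these 2 genes the libraries of both groups mixed freely and OIR-Norm 2 did not stand out. Lrit3, a leucine-rich repeat protein also needed for TRPM1 at the synapse, was at 62.6, 67.5 and 57.9 CPM in OIR-CIH and at 75.6, 71.1 and 66.7 CPM in OIR-Norm. Only OIR-CIH 2 crossed into the OIR-Norm range, and the log2 fold change was -0.18 (95% interval -0.36 to -0.0027, edgeR adjusted p = 0.367).

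**Figure D2:**
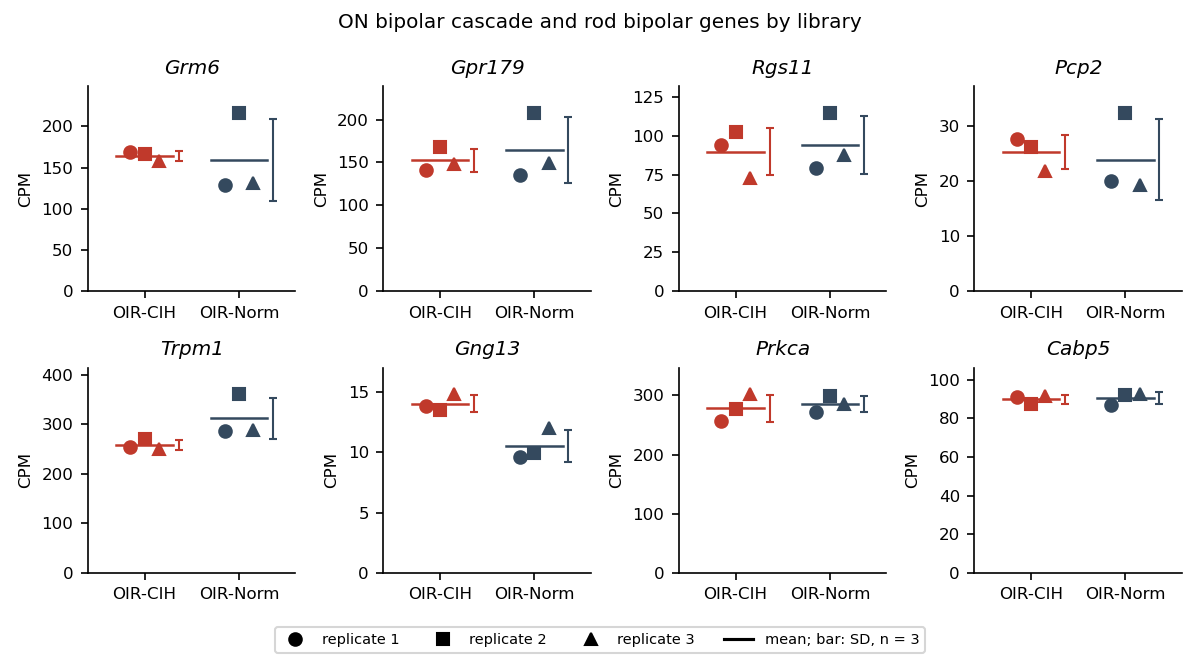
CPM (linear axis from 0) of 8 cascade and rod bipolar genes in each library, with the group mean and the SD beside it (n = 3). OIR-Norm 2, the square on the right of each panel, is far above the other two OIR-Norm libraries for Grm6, Gpr179, Rgs11 and Pcp2, less so for Trpm1, and level with them for Gng13, Prkca and Cabp5.

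Compared with the mean of OIR-Norm 1 and 3, OIR-Norm 2 held 1.66 times as much Grm6 RNA, 1.65 times as much Pcp2, 1.46 times as much Gpr179 and 1.37 times as much Rgs11. These 4 of the 31 genes lay above 1.35, the upper 2.5% bound of the same ratio over the 12059 genes with at least 5 CPM, whose median was 0.981, and 84 of those genes had a ratio at or above that of Grm6. The ratio was above 1 for 22 of the 31 genes. It was 1.25 for Trpm1, 1.12 for Lhx4 and Samsn1, 1.07 for Prkca, 0.919 for Gng13, 0.916 for Nyx and 0.799 for Sebox, the lowest of the 31. Without OIR-Norm 2 the log2 fold change rose from 0.05 to 0.33 for Grm6 (edgeR adjusted p = 0.178) and from 0.08 to 0.36 for Pcp2 (edgeR adjusted p = 0.409), and it turned from below to above 0 for Gpr179 and Rgs11 (0.10 each). None passed the threshold. Exons of Grm6 share 599 of 5421 bases with Gm12660 on the opposite strand, which had 483 counts in all against 29398 for Grm6 and was itself at 4.84 CPM in OIR-Norm 2, against 2.34 and 2.33 CPM in OIR-Norm 1 and 3. Those of Pcp2 share 941 of 1828 bases with Pet100, which was at 7.89 CPM in OIR-Norm 2 against 9.61 and 9.30 CPM in OIR-Norm 1 and 3. The part of the lens, rod and endothelial RNA of OIR-Norm 2 in its bipolar values was not tested.

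Rod bipolar cells, the ON bipolar type that serves rods, are represented by 6 genes. In the fit 3 were higher and 3 lower, with a median log2 fold change of 0.03, all 6 intervals lay within 0.5 of 0, and 0 had an unadjusted p under 0.05. Prkca, the protein kinase C isoform that is the standard label of these cells, was at 256, 277 and 302 CPM in OIR-CIH and at 272, 299 and 286 CPM in OIR-Norm. The groups overlapped fully, with a log2 fold change of -0.04 (SE 0.0812, 95% interval -0.22 to 0.14), so that a change of Prkca RNA beyond these bounds was not measured. Pcp2, a modulator of Go, was at 27.7, 26.3 and 21.8 CPM in OIR-CIH and at 20.1, 32.4 and 19.3 CPM in OIR-Norm, the widest spread of the 31 genes (mean coefficient of variation 21.5%), with OIR-Norm 2 the highest of the 6. Cabp5, a calcium-binding protein of rod and some cone bipolar cells, was at 91.2, 87.3 and 91.5 CPM in OIR-CIH and at 87.2, 92.2 and 92.4 CPM in OIR-Norm. Its spread was among the 3 smallest (2.93%), and its log2 fold change was -0.01 (95% interval -0.16 to 0.14). Vstm2b, a membrane protein of the immunoglobulin family, was at 48.9, 47.3 and 49.4 CPM in OIR-CIH and at 45.0, 46.2 and 44.5 CPM in OIR-Norm. Here the spread was the smallest of all (2.15%), and the groups did not overlap although they differed little (log2 fold change 0.10, 95% interval -0.05 to 0.26). Sebox, a homeobox gene, and Car8, a relative of the carbonic anhydrases, had log2 fold changes of 0.11 and -0.03. Without OIR-Norm 2, its lowest library, Sebox was at 0.0079.

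**Figure D3:**
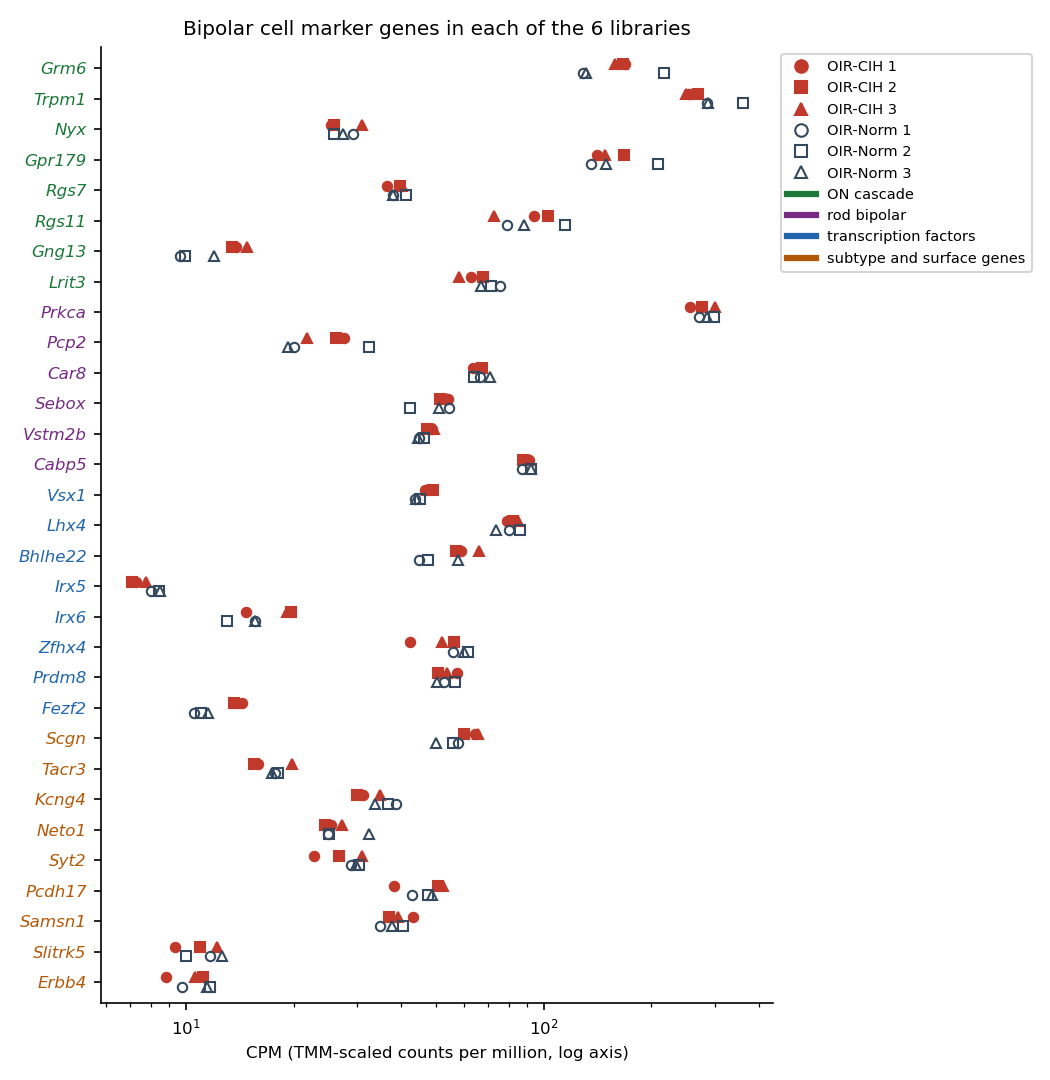
CPM (log axis) of the 31 bipolar genes in each of the 6 libraries, with filled red symbols for OIR-CIH, open symbols for OIR-Norm, one shape per replicate number and gene names colored by role. For most genes the symbols of the 2 groups mix, and they separate for Gng13, Fezf2, Scgn, Vsx1 and Vstm2b (higher in OIR-CIH) and for Trpm1 and Irx5 (lower).

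The transcription factors of bipolar types are represented by 8 genes, of which 6 were higher and 2 lower in OIR-CIH in the fit, with a median log2 fold change of 0.07, and 6 of the 8 intervals lay within 0.5 of 0. An unadjusted p under 0.05 was found for 4 of the 8, against 13.4% of all genes, with no test of that share. Vsx1, a homeodomain factor of OFF cone bipolar cells, was at 46.7, 49.1 and 47.2 CPM in OIR-CIH and at 43.6, 45.1 and 44.1 CPM in OIR-Norm. The groups did not overlap, but with so small a spread (2.26%) the difference was slight, a log2 fold change of 0.11 (95% interval -0.05 to 0.26, edgeR adjusted p = 0.553). Fezf2 (ENSMUSG00000021743), a zinc finger factor, was at 14.3, 13.6 and 13.8 CPM in OIR-CIH and at 10.5, 11.1 and 11.5 CPM in OIR-Norm. Every OIR-CIH library was above every OIR-Norm library, with a log2 fold change of 0.33 (SE 0.0987, 95% interval 0.12 to 0.55, edgeR adjusted p = 0.227).

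Bhlhe22, a basic helix-loop-helix factor of OFF cone bipolar and amacrine cells, was at 58.9, 56.9 and 65.9 CPM in OIR-CIH and at 44.8, 47.4 and 57.5 CPM in OIR-Norm. Its groups overlapped by little, as OIR-Norm 3 lay above OIR-CIH 2, and the log2 fold change was 0.28 (edgeR adjusted p = 0.294). Because Bhlhe22 is not particular to bipolar cells, the amacrine markers are given beside it. Of 7 such genes 6 were higher in OIR-CIH in the fit, with a median log2 fold change of 0.18, and 0 were called. Their sum was 594.7, 589.3 and 745.5 CPM in OIR-CIH 1, 2 and 3 and 552.1, 587.1 and 581.0 CPM in OIR-Norm 1, 2 and 3. Only OIR-CIH 3 was well above the OIR-Norm libraries. The part of amacrine RNA in the Bhlhe22 values was not tested.

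The Iroquois factors Irx5 and Irx6, both of OFF cone bipolar cells, differed in opposite directions. Irx5 was at 7.26, 7.07 and 7.73 CPM in OIR-CIH and at 8.02, 8.42 and 8.48 CPM in OIR-Norm, a separation of the groups at a log2 fold change of -0.17 (edgeR adjusted p = 0.544). Irx6 was at 14.8, 19.7 and 19.1 CPM in OIR-CIH and at 15.6, 13.0 and 15.6 CPM in OIR-Norm. OIR-CIH 1 lay within the OIR-Norm range and the other two OIR-CIH libraries above it, giving a log2 fold change of 0.28 (95% interval 0.01 to 0.55, edgeR adjusted p = 0.358). For every 100 reads of Irx5 there were 203, 278 and 248 reads of Irx6 in OIR-CIH and 194, 155 and 184 in OIR-Norm, so that each OIR-CIH library had a higher ratio than each OIR-Norm library. This ratio was chosen after the values were seen. Zfhx4, a large protein with zinc fingers and homeodomains, was at 42.4, 56.0 and 52.1 CPM in OIR-CIH and at 55.7, 61.6 and 60.1 CPM in OIR-Norm. OIR-CIH 1 was the lowest by far, OIR-CIH 2 fell just inside the OIR-Norm range, and the log2 fold change was -0.23 (edgeR adjusted p = 0.344). Without OIR-CIH 1 the log2 fold change of Zfhx4 was -0.13 (edgeR adjusted p = 0.678). Lhx4, of cone bipolar cells, and Prdm8, required for rod bipolar and some OFF bipolar cells, had log2 fold changes of 0.03 and 0.02.

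The last group holds genes of bipolar subtypes and of the cell surface. Of 9 genes 3 were higher and 6 lower in OIR-CIH in the fit, with a median log2 fold change of -0.07, and all 9 intervals lay within 0.5 of 0. Scgn, which encodes secretagogin, a calcium sensor of cone bipolar cells, was at 64.3, 60.0 and 65.4 CPM in OIR-CIH and at 57.6, 55.8 and 49.9 CPM in OIR-Norm. The groups did not overlap, and the log2 fold change was 0.22 (SE 0.0806, 95% interval 0.04 to 0.39, edgeR adjusted p = 0.299). Kcng4, a modifying subunit of potassium channels, had a log2 fold change of -0.18 (95% interval -0.37 to 0.01). The other 7 genes had log2 fold changes between -0.14 for Syt2, a synaptotagmin, and 0.08 for Samsn1, an adaptor protein, with the groups overlapping in each. They include Tacr3, the neurokinin receptor of OFF bipolar cells, at -0.05, Neto1, an auxiliary subunit of kainate receptors, at -0.10, and the neuregulin receptor gene Erbb4, also at -0.10. Pcdh17, a protocadherin, and Slitrk5, a synaptic adhesion protein, were at 0.02 and -0.07. All 9 of these genes were above their own mean over the 6 libraries in OIR-CIH 3 and only 2 of them in OIR-CIH 1, so that their spread within OIR-CIH was shared across genes. A high OIR-CIH 3 was not particular to them. The summed amacrine markers were also highest there, at 745.5 CPM against 594.7 and 589.3 CPM in OIR-CIH 1 and 2. The summed ganglion cell markers were instead highest in OIR-CIH 2 (882.7 CPM).

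Over all 31 genes the groups did not overlap for 7 (5 higher and 2 lower in OIR-CIH), against 18.4% of all genes tested and 20.8% of those with a mean of at least 5 CPM. The corresponding shares of all genes were 9.12% in the higher direction and 9.26% in the lower. The summed RNA of the 31 genes was between 1917 and 2010 CPM in OIR-CIH and between 1906 and 2229 CPM in OIR-Norm, the highest value being that of OIR-Norm 2. Scaled to the length of their exons, the levels of the 31 genes ran from 0.857 CPM per kb for Erbb4 to 37.6 CPM per kb for Sebox (means over 6 libraries). On this scale Scgn reached 39.0 and 33.6 CPM per kb in OIR-CIH and OIR-Norm, Cabp5 35.6 and 35.9, Prkca 30.9 and 31.8, and Grm6 30.3 and 29.4. Trpm1, whose CPM was close to that of Prkca, was at 17.5 and 21.1 CPM per kb because its exons are longer. The defining markers of ON, OFF and rod bipolar cells were all present in each library.

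**Figure D4:**
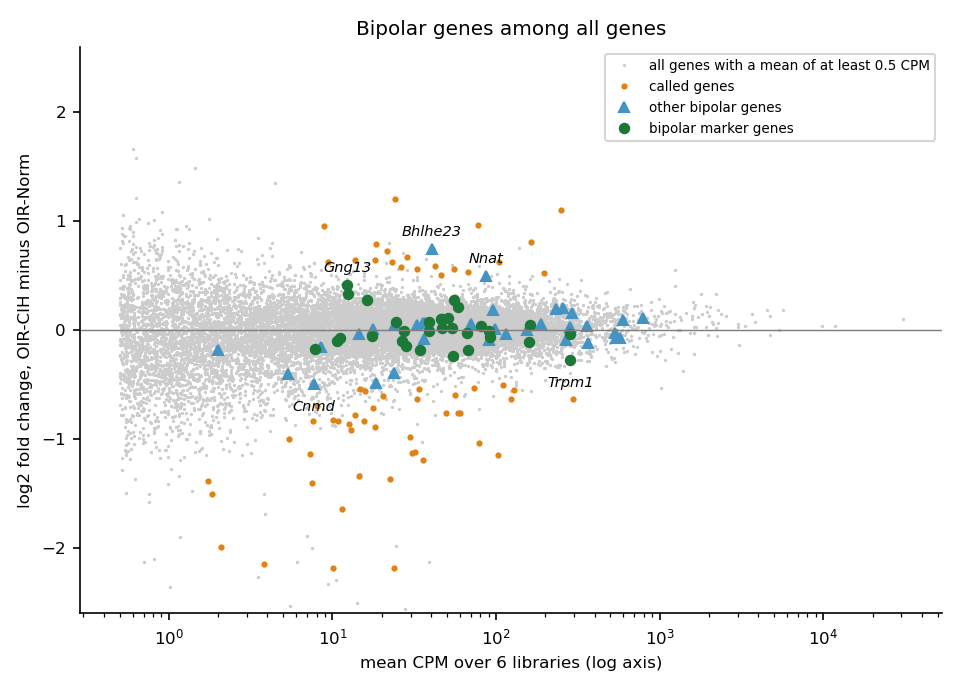
The log2 fold change (OIR-CIH minus OIR-Norm) against the mean CPM (log axis) for all genes with a mean of at least 0.5 CPM, with called genes in orange, the 31 bipolar genes as green circles and 34 other bipolar genes as blue triangles; 8 genes beyond 2.6 in either direction are not shown. The bipolar genes lie in the dense band around 0, and Bhlhe23 is the only triangle among the called genes.

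Beyond these 31 genes, 34 other genes of bipolar cells and their input synapse, listed by function, were read from the same fit. Of these 19 were higher and 15 lower in OIR-CIH in the fit, with a median log2 fold change of 0.01, 7 had an unadjusted p under 0.05 (13.4% of all genes, 15.8% of those with at least 5 CPM), and 9 did not overlap between the groups (18.4% and 20.8%). Bhlhe23, a basic helix-loop-helix factor needed for rod bipolar maturation, was the only gene called (1 of 34). It was at 49.2, 49.5 and 53.9 CPM in OIR-CIH and at 33.7, 25.4 and 31.9 CPM in OIR-Norm, a clear separation. The log2 fold change was 0.75 (SE 0.103, 95% interval 0.52 to 0.97, edgeR adjusted p = 0.00761), and it was called in each of the 6 fits that left out 1 library (edgeR adjusted p = 0.00768 to 0.0465). Nnat, which encodes the small membrane protein neuronatin, was at 97.3, 98.5 and 107 CPM in OIR-CIH and at 74.2, 73.0 and 67.6 CPM in OIR-Norm. Its edgeR adjusted p was 0.0133, but the log2 fold change of 0.497 was just under the minimum of 0.5, and it passed that minimum and was called without OIR-CIH 2, OIR-Norm 1 or OIR-Norm 2. Without OIR-CIH 1 or OIR-CIH 3 the edgeR adjusted p was 0.0563 and 0.0613. Both genes are in the study's own list of changed genes, which was drawn from these libraries, so they are not independent evidence.

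The next 5 of these genes by p did not pass the threshold. Cnmd, which encodes the secreted glycoprotein chondromodulin, was at 6.16, 6.62 and 6.48 CPM in OIR-CIH and at 8.73, 9.93 and 8.48 CPM in OIR-Norm (log2 fold change -0.49, edgeR adjusted p = 0.157). Col11a1, a collagen chain, had a log2 fold change of -0.39, but OIR-Norm 2 held 1.47 times the mean of the other two OIR-Norm libraries, and without that library the log2 fold change was -0.18. Otx2, the homeodomain factor shared by photoreceptors and bipolar cells, was at 297, 268 and 261 CPM in OIR-CIH and at 249, 236 and 232 CPM in OIR-Norm (log2 fold change 0.21, edgeR adjusted p = 0.296). Gabrr1, the rho subunit of the GABA receptor on bipolar axon terminals, and Glra1, a glycine receptor subunit, had log2 fold changes of 0.18 and -0.40. The 6 partners of the cascade (Gnao1, Gnb3, Gnb5, Lrit1, Rgs9bp and Gnai1) had log2 fold changes between -0.07 and 0.11, with 0 at an unadjusted p under 0.05. Gnao1, the alpha subunit of Go that acts together with Gng13, was at 348, 341 and 398 CPM in OIR-CIH and at 351, 371 and 339 CPM in OIR-Norm. The 7 genes of the photoreceptor side of the synapse were between -0.12 for Cacna1f, the channel that drives glutamate release, and 0.20 for Cabp4, its calcium-binding regulator.

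Markers of the other retinal cell types placed the bipolar genes among them. The median log2 fold change was 0.14 for 6 rod genes, 0.10 for 6 cone genes, 0.18 for 7 amacrine genes and 0.14 for 4 horizontal genes. It was 0.03 for 7 ganglion cell genes and 0.07 for 6 genes of Müller glia, next to -0.01 for the bipolar genes. For non-neural cells it was -0.24 for 6 microglial genes, -0.44 for 5 endothelial genes, 0.59 for 5 pigment epithelium genes, -2.34 for 4 lens genes and -0.51 for 5 genes of red blood cells. None of these marker genes (0) was called by edgeR, and 16 of 61 had an unadjusted p under 0.05, against 13.4% of all genes. A fit of these lists without OIR-Norm 2 was added after the data were seen. The medians were then 0.69 for lens, 0.08 for endothelial, -0.34 for red blood cell and 0.03 for the bipolar genes. The lens and endothelial medians turned from below to above 0, as did the bipolar median. Only the lens shift was larger than the spread between libraries.

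**Figure D5:**
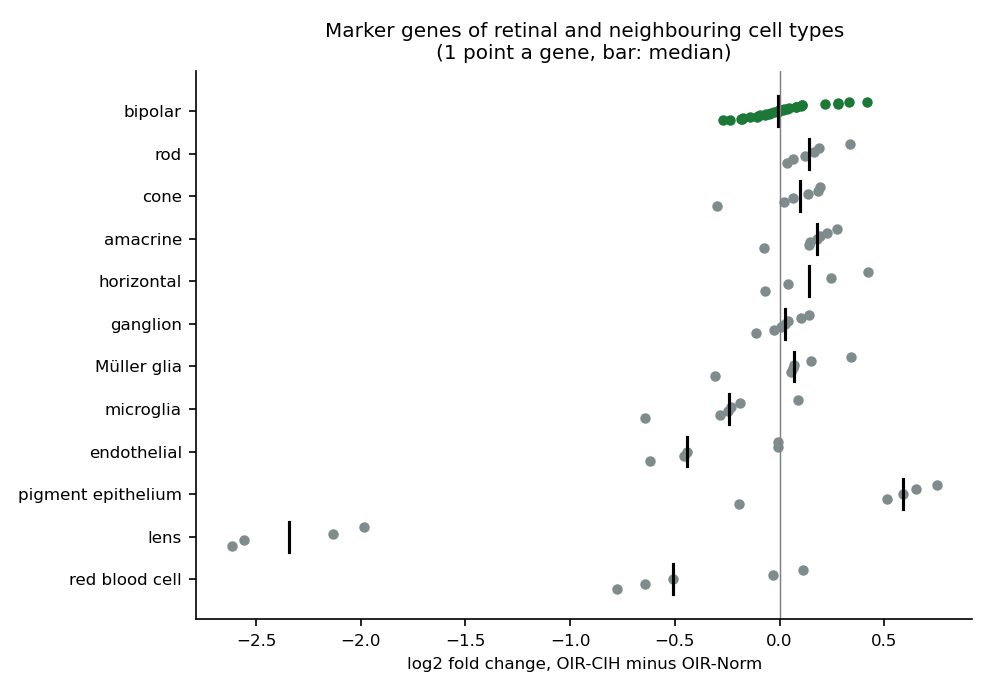
The log2 fold change (OIR-CIH minus OIR-Norm) of the marker genes of each cell type, 1 point per gene, with a bar at the median. The bipolar genes span from -0.27 to 0.42 around a median of -0.01, while the points of lens lie near or below -1.98.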

How the data were processed

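Retinal RNA of 6 libraries (250 ng of total RNA each, TruSeq Stranded mRNA) was analysed. The authors aligned the reads with STAR 2.7.9a, counted them per gene and deposited raw counts in 1 table, without normalization. The paper names Ensembl 105 and the submitters' processing notes GRCm38, and the strand column kept is not given in the sources used here. Counts were tested with edgeR 4.0.16 in R 4.3.3 (glmQLFit and glmQLFTest, TMM scaling) over the 20021 genes whose counts summed to 10 or more, with Benjamini-Hochberg adjustment over all of them. The study's thresholds were used for calls (adjusted p below 0.05, log2 fold change beyond 0.5 in either direction). The SE was taken from the fold change and the F statistic. Symbols (32158 of 32285 identifiers), exon lengths and overlaps came from GENCODE M21, and promoters from RefSeq. The fit was also run on counts simulated from the means and gene-wise spread of these libraries. That simulation held no shift shared across genes, as in OIR-Norm 2, and its outcome is not used here. No label says that the libraries came from separate animals, so p-values measure the spread between libraries, which may be partly technical. The 31 genes and all lists, motifs and tests were chosen with earlier results of these data known. Values per library are printed for the ON cascade, for genes with an unadjusted p under 0.05, for Prkca, Pcp2 and Vsx1 and for the 3 widest and 3 smallest spreads; those of Irx5, Gnao1 and Chtf18 and the ratios were added after values were seen. Of the other bipolar genes, called ones and the next 6 by p are named by that rule. A marker gene of the rod list is not reported here. No 2 libraries of the same group agreed within sampling noise. Alternatives were DESeq2 1.42.0, its size factors, limma 3.58.1 on log2(CPM + 0.5), edgeR's legacy test, other count filters, no minimum fold change, a replicate block and leaving out each library.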

Additional observations from a re-analysis of the deposited data

How the results depend on the processing

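No bipolar gene of the 31 was called under any alternative tried, and in the 7 settings that kept all libraries none of 217 log2 fold changes turned its sign (0). The lowest adjusted p of the 31 in those settings was 0.0863, for Gng13 in DESeq2. DESeq2 called 135 genes in all (34 higher, 101 lower) against 63 by edgeR. Leaving out 1 library gave between 29 (without OIR-CIH 1) and 97 (without OIR-Norm 3) calls, between 7 and 31 of them higher and between 22 and 81 lower. Of the other bipolar genes 2 were called with no minimum fold change, and 1 or 2 without a library. The count of bipolar genes with an unadjusted p under 0.05, examined after seeing the data, was 7 or 8 with all libraries and 5 to 7 without 1, the 5 without OIR-CIH 1, where 8.69% of all genes passed.

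For 15 of the 31 genes the sign turned when 1 library was left out, with log2 fold changes from -0.089 to 0.33 for Grm6, -0.11 to 0.046 for Nyx, -0.23 to 0.099 for Gpr179, -0.039 to 0.031 for Rgs7, -0.18 to 0.10 for Rgs11, -0.10 to 0.013 for Prkca, -0.057 to 0.36 for Pcp2, -0.060 to 0.015 for Car8, -0.042 to 0.011 for Cabp5, -0.022 to 0.089 for Lhx4, -0.030 to 0.062 for Prdm8, -0.18 to 0.017 for Tacr3, -0.17 to 0.040 for Neto1, -0.070 to 0.15 for Pcdh17 and -0.17 to 0.020 for Slitrk5. Gng13, Fezf2, Bhlhe22, Scgn, Irx6, Trpm1, Zfhx4 and Lrit3, the genes with an unadjusted p under 0.05, kept theirs in all 6 of these fits. So did Sebox, Vstm2b, Vsx1, Irx5, Kcng4, Syt2, Samsn1 and Erbb4. The former were selected by p in the same libraries, so their kept signs are not added support. The cause of the turned signs was not tested.

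The replicate numbers did not pair the libraries (correlations of deviations 0.162, 0.143 and -0.238). A fit with the replicate block gave 68 calls, of which 48 were shared with the unblocked fit, and 0 of the 31 genes. With 3 libraries a group, differences of the bipolar genes had an SE of 0.0697 to 0.173 (log2), although each gene had at least 185 counts in every library.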
